A study of Homo sapiens with 4 samples.

Results

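The mRNAs described here are those of solute carrier genes that carried at least 1 cluster of crosslinked reads in a PAR-CLIP of the helicase DHX36. Members were chosen by 2 measured values, the number of clusters in each of the PAR-CLIPs, as all identifiers written as SLC, a number, the letter A and a number that had a cluster in either. The gene table of 26490 lines lists 334 identifiers of this form, with SLC25A6 on 2 lines that both lack a cluster. Of the solute carrier lines, 125 met the rule (37.3%) and 210 did not. Because of this choice, the number of bound genes and all reads in clusters are descriptions of the members, and no test was made of them.

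PAR-CLIP was performed in HEK293 cells, a human embryonic kidney line, with 2 replicates for each of 2 stable lines. Each line carried a FLAG/HA-tagged DHX36 transgene switched on with tetracycline (500 ng per ml for 15 h), and cells were irradiated at 365 nm for 5 min before FLAG immunoprecipitation. FH-DHX36 is isoform 2 with an intact helicase, and FH-DHX36-E335A is isoform 1 with the E335A mutation that disables ATP hydrolysis, so that isoform and mutation cannot be told apart in any difference between the lines. Endogenous DHX36 was still present in both lines, and the transgenes were overexpressed from the same inducible promoter. The deposited table gives 1 value per gene and line without separating the replicates, and how they were combined is not stated. This leaves no replicate error for any value below.

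Solute carriers are membrane proteins that move amino acids, sugars, metal ions, nucleotides and other small molecules across the plasma membrane and the membranes of organelles, and they are numbered in families by sequence. Proliferating cells depend on them for nutrients, and several are controlled through their mRNAs. DHX36 unwinds G-quadruplexes, structures that form where runs of G stack on each other, and a PAR-CLIP marks the RNA it touches because crosslinked 4-thiouridine appears as C where T was expected. A cluster is a group of overlapping reads with such conversions, and NXPM is a score that scales the crosslinked reads of a gene to the PAR-CLIP's total and divides them by its RNA abundance.

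The UTRs of solute carriers were searched for runs of G. The pattern searched was at least 4 runs of at least 2 G separated by 1 to 7 bases on the sense strand, in the canonical transcript of each gene. A separating base could itself be G, so that a long run could count as more than 1. The stretches of SLC5A3, SLC39A8 and SLC41A1 match in this way. The 3′ UTR stretches shown are those of the 12 carriers with the most FH-DHX36-E335A reads in the 3′ UTR among those with a match, without SLC7A2. The 5′ UTR stretches are those of SLC39A8 and SLC41A1, which are described below for their 5′ UTR reads. Among matches of at most 30 bases within 1 exon, the match with runs of at least 3 G was taken, or otherwise the match with the largest share of G. Capitals mark the runs of G, positions are on GRCh37, and all are written 5′ to 3′ in the direction of the mRNA.
SLC16A1, 3′ UTR, chr1:113454780-113454794, minus strand: GGcaaGGaGGaGGGG
SLC38A1, 3′ UTR, chr12:46579555-46579570, minus strand: GGaGGGtgaaGGaGGG
SLC20A1, 3′ UTR, chr2:113421112-113421136, plus strand: GGcaGGatctattGGcatattcGGG
SLC38A2, 3′ UTR, chr12:46752835-46752853, minus strand: GGcaaccaGGaaGGaatGG
SLC39A1, 3′ UTR, chr1:153931849-153931864, minus strand: GGGctGGGGtaGGaGG
SLC7A1, 3′ UTR, chr13:30087148-30087162, minus strand: GGGGGaGGaGGaGGG
SLC39A10, 3′ UTR, chr2:196600548-196600565, plus strand: GGcGGGGGtaGGtgaGGG
SLC26A2, 3′ UTR, chr5:149364149-149364160, plus strand: GGGaGGcGGaGG
SLC7A5, 3′ UTR, chr16:87865994-87866018, minus strand: GGGtggcactGGGaGGGGGtGGGGG
SLC35A4, 3′ UTR, chr5:139947883-139947894, plus strand: GGaGGttGGtGG
SLC5A3, 3′ UTR, chr21:35476988-35477006, plus strand: GGcctGGGGGGatgaGGGG
SLC1A5, 3′ UTR, chr19:47278206-47278228, minus strand: GGGactctGGGGagaGGctgaGG
SLC39A8, 5′ UTR, chr4:103266593-103266607, minus strand: GGttgtGGGGGcGGG
SLC41A1, 5′ UTR, chr1:205782051-205782076, minus strand: GGGGGtgtGGGGGGGcacgccGGGGG
The table gives no position of a cluster within a gene, so a match describes the letters of the UTR and not a site of DHX36.

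Of the 124 members with a matched transcript, 98 held at least 1 match in the 3′ UTR (79.0%). The share was 72.1% of 208 unbound solute carriers, 71.8% of all bound genes and 65.2% of all genes with a 3′ UTR. Members also had longer 3′ UTRs, with a median of 2168 nt against 1011 nt for unbound solute carriers and 1548 nt for all bound genes. Per kb of 3′ UTR, members held 1.60 matches, fewer than the 2.15 of unbound solute carriers and the 1.75 of all bound genes. The same pattern with every run of at least 3 G, as in SLC7A5, occurred in 20 members (16.1%). The share was 16.3% of unbound solute carriers, 16.1% of all bound genes and 14.5% of all genes. In 26 members no 3′ UTR match was found, and 18 of these had FH-DHX36-E335A reads in the 3′ UTR, among them SLC25A36 with 1304 reads and SLC30A1 with 808 reads. Across members, Spearman's rho of the number of 3′ UTR clusters with the number of matches was 0.40 for FH-DHX36 (65 genes) and 0.093 for FH-DHX36-E335A (118 genes). For other bound genes the values were 0.40 and 0.27. The rho of members' 3′ UTR clusters with 3′ UTR length was 0.19 (FH-DHX36) and 0.20 (FH-DHX36-E335A), and the part of length in these values was not tested. The genes of 1 PAR-CLIP share its libraries.

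FH-DHX36-E335A clusters were found on 118 solute carrier lines, which is 35.2% of them (95% Wilson interval 30.3 to 40.5%) beside a background of 34.5% of all 26490 lines. FH-DHX36 clusters were found on 66 lines, which is 19.7% (15.8 to 24.3%) beside a background of 22.4%. Both PAR-CLIPs marked 59 carriers (17.6% of lines, background 21.4%). A cluster in either PAR-CLIP was thus about as frequent among solute carriers as among all listed genes (background 35.5%). Of the 125 members, 59 carried a cluster with FH-DHX36-E335A alone, where the background among all bound genes is 36.9%, and 7 with FH-DHX36 alone (background 2.78%). Summed over all genes, crosslinked reads came to 8752127 for FH-DHX36-E335A and to 2160413 for FH-DHX36, a ratio of 4.05.

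Bound carriers came from 38 of the 48 families in the table, and no member of 10 families was bound. Among the larger groups, carriers of metals (20 of 32 lines, 62.5%) and of the mitochondria (31 of 49 lines, 63.3%) were marked most often. The background is 35.5% of all lines. Bound lines numbered 19 of 57 (33.3%) for carriers of inorganic ions and pH and 14 of 49 (28.6%) for sugars and monocarboxylates. For amino acids and neurotransmitters they numbered 21 of 77 (27.3%). Vitamin, nucleoside, lipid and organic ion carriers had 16 of 66 lines bound (24.2%). The Golgi nucleotide sugar family SLC35A had 4 of 5. The families SLC17, SLC18 and SLC32, which include the vesicular transporters of glutamate, amines and GABA, had no cluster. RNA abundance can be recovered from the table only for genes with a cluster, so the part of RNA abundance in these counts was not tested.

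**Figure D1:**
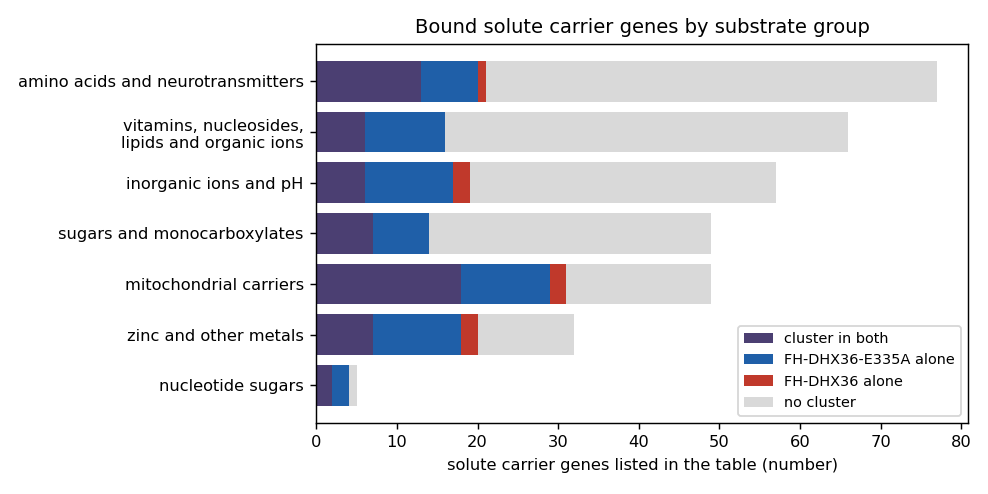
Number of solute carrier lines (x axis) in each of 7 substrate groups (y axis), coloured by whether a cluster was found in both PAR-CLIPs, with FH-DHX36-E335A alone, with FH-DHX36 alone or in neither. Bound lines outnumber unbound ones for mitochondrial carriers (31 of 49), for zinc and other metals (20 of 32) and for nucleotide sugars (4 of 5). Over all genes, 35.5% of lines are bound.

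Crosslinked reads were concentrated on few members. The 118 carriers bound by FH-DHX36-E335A held 77818 reads (0.889% of the table's total) in 627 clusters, and the 66 bound by FH-DHX36 held 24000 reads (1.11%) in 203 clusters. The 10 most read members held 50.6% and 68.4% of these reads. The median member had 197.5 reads with FH-DHX36-E335A, below the 327 of other bound genes, and 132 reads with FH-DHX36, beside 120.5 for other bound genes. A single cluster supported 36 of 118 members with FH-DHX36-E335A (background 17.1%) and 28 of 66 with FH-DHX36 (background 43.3%). At least 100 reads were found on 69 of 118 (background 75.3%) and 40 of 66 (background 55.2%). Just inside the rule were SLC27A5 with 10 reads, SLC25A42 with 12 reads and SLC25A20 with 14 reads, each in 1 cluster and in 1 PAR-CLIP. Just outside it are lines with no cluster and no reads listed.

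**Figure D2:**
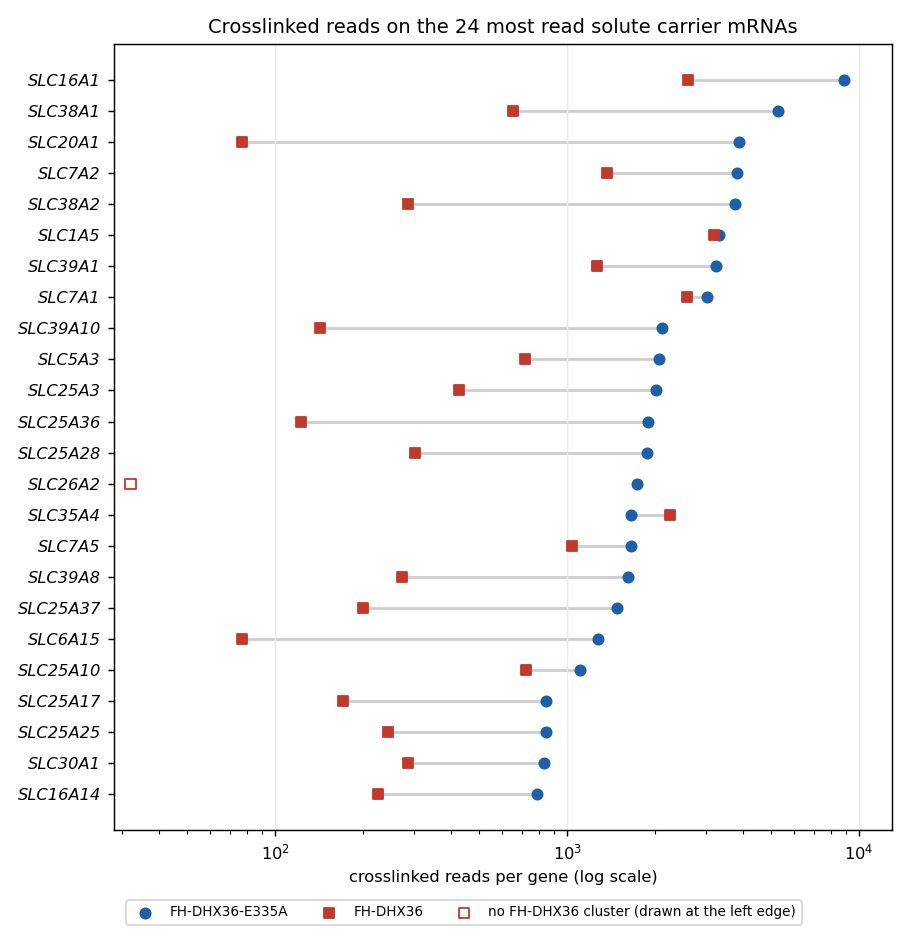
Crosslinked reads per gene (x axis, log scale) for the 24 members with the most FH-DHX36-E335A reads (y axis), with circles for FH-DHX36-E335A and squares for FH-DHX36. Reads with FH-DHX36-E335A exceed those with FH-DHX36 for every gene drawn except SLC35A4 (1655 and 2255), and SLC26A2 has no FH-DHX36 cluster. This direction follows in part from picking genes by FH-DHX36-E335A reads and from unscaled reads, since the totals differ by a ratio of 4.05.

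Amino acid carriers held the most reads of any group in both PAR-CLIPs, 24202 for the mutant and 10132 for FH-DHX36. The SNAT transporters SLC38A1 and SLC38A2, which bring neutral amino acids such as glutamine into the cell with sodium, carried 5289 and 3763 FH-DHX36-E335A reads. With FH-DHX36 they carried 652 and 286 reads. In SLC38A1, 4746 of the FH-DHX36-E335A reads lay in the 3′ UTR, while 355 of the 652 FH-DHX36 reads were intronic. The arginine and lysine importers SLC7A1 and SLC7A2 were high in both PAR-CLIPs, with 3015 and 3803 FH-DHX36-E335A reads and 2579 and 1373 FH-DHX36 reads. Their NXPM was 73.0 and 146 in the helicase mutant and 253 and 213 for FH-DHX36.

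SLC1A5, the glutamine transporter ASCT2, was the most read carrier of the FH-DHX36 PAR-CLIP with 3196 reads, 13.3% of all member reads there. It had 3304 reads with FH-DHX36-E335A, and scaled to each total it was 3.92-fold higher with FH-DHX36. The regions differed, with 1342 FH-DHX36 reads in coding sequence and 526 in the 3′ UTR, against 110 and 815 with FH-DHX36-E335A. In both PAR-CLIPs a large part of its reads carried an annotation other than UTR, CDS or intron (1137 and 2121). SLC7A5, the leucine importer LAT1, had 1653 and 1036 reads with FH-DHX36-E335A and FH-DHX36, nearly all in the 3′ UTR (1653 and 1004). SLC3A2, the heavy chain that carries LAT1 to the membrane, had 568 and 550 reads. With FH-DHX36, 295 of the 550 were in the CDS and 150 carried another annotation. With FH-DHX36-E335A, 526 of the 568 carried another annotation and 18 were in the 3′ UTR. SLC6A15, a neutral amino acid carrier, had 1277 FH-DHX36-E335A reads and 77 FH-DHX36 reads. Scaled to each total, it was 4.09-fold higher with FH-DHX36-E335A. SLC7A11, which exchanges cystine for glutamate, had 25 FH-DHX36-E335A reads and no FH-DHX36 cluster.

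Sugar and monocarboxylate carriers held the single most read member. SLC16A1, the lactate and pyruvate transporter MCT1 (chr1:113454469-113498818, minus strand), had 8875 reads in 23 clusters with FH-DHX36-E335A, 11.4% of all member reads. It had 2604 reads in 12 clusters with FH-DHX36. Its FH-DHX36-E335A reads were split into 6080 in the 3′ UTR, 1927 in coding sequence and 105 in the 5′ UTR. Its FH-DHX36 reads were split into 1374 and 1195 between the 3′ UTR and coding sequence. SLC5A3, which imports myo-inositol, had fewer reads (2058 and 716) but NXPM values of 205 and 290, at a recovered abundance of 1.14. It lies in the same strand and locus as MRPS6, so that reads of overlapping transcripts may be listed under it. SLC37A3 had 759 and 107 reads and the sugar transporter SLC50A1 616 and 144. The glucose transporter SLC2A1 had 29 FH-DHX36-E335A reads in 1 cluster, and none of the 4 bound SLC2A genes had an FH-DHX36 cluster.

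Metal carriers were read mostly in UTRs. The zinc importer SLC39A1 had 3244 and 1268 reads with FH-DHX36-E335A and FH-DHX36, of which 3118 and 1148 were in the 3′ UTR. SLC39A10, another zinc importer, had 2115 and 142 reads. SLC39A8, which imports zinc and manganese, stood apart with 1388 of its 1616 FH-DHX36-E335A reads and 137 of its 273 FH-DHX36 reads in the 5′ UTR. The magnesium transporter SLC41A1 had all 264 FH-DHX36 reads and 270 of 470 FH-DHX36-E335A reads in the 5′ UTR. SLC39A8 and SLC41A1 hold G-run matches in the 5′ UTR, as do 71.8% of members, 63.4% of all bound genes and 54.0% of all matched genes. The iron and manganese importer SLC11A2 (586 reads), the copper importer SLC31A1 (397 reads) and the iron exporter SLC40A1 (39 reads) had clusters with FH-DHX36-E335A alone. The zinc exporter SLC30A1 had 835 and 286 reads, and the other 5 bound SLC30 genes had no FH-DHX36 cluster.

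The SLC25 family, most of whose members carry metabolites across the inner mitochondrial membrane, gave 31 bound genes with 15994 and 3197 reads. SLC25A17 of the peroxisome and SLC25A46 of the outer mitochondrial membrane are counted in it. Its reads were spread more evenly than those of other groups, and its most read member, the phosphate carrier SLC25A3, held 2020 FH-DHX36-E335A reads. Of these, 1054 carried an annotation other than UTR, CDS or intron, as did 85 of its 427 FH-DHX36 reads. The ADP/ATP carrier SLC25A5 had 626 and 48 reads. These are the most abundant mRNAs among members, with a recovered abundance of 474 for SLC25A3 and 683 for SLC25A5, and their NXPM was 0.49 and 0.10 with FH-DHX36-E335A. SLC25A5 has close paralogs, and how reads that match several copies were placed was not stated. The pyrimidine nucleotide carriers SLC25A36 and SLC25A33 had 1893 and 623 FH-DHX36-E335A reads and 123 and 26 FH-DHX36 reads. The mitochondrial iron importers SLC25A28 and SLC25A37 had 1882 and 1486 FH-DHX36-E335A reads and 301 and 200 FH-DHX36 reads. In SLC25A28, 958 of the 1882 reads and all 301 carried another annotation. In SLC25A37, 741 of the 1486 reads were intronic. In the dicarboxylate carrier SLC25A10, 939 of 1110 FH-DHX36-E335A reads were intronic, whereas 536 of 726 FH-DHX36 reads carried another annotation.

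Reads of inorganic ion carriers were uneven between the PAR-CLIPs. SLC20A1, a phosphate importer, had 3875 reads with FH-DHX36-E335A, 3748 of them in the 3′ UTR, and 77 reads with FH-DHX36. Its partner in the family, SLC20A2, had 746 and 82 reads, mostly intronic (685 and 82). The sulfate transporter SLC26A2 had 1737 FH-DHX36-E335A reads, an NXPM of 215, and no FH-DHX36 cluster. The bicarbonate transporter SLC4A7 (477 reads) and the sodium-potassium-chloride cotransporter SLC12A2 (208 reads) likewise had FH-DHX36-E335A clusters alone. The anion exchanger SLC4A2 had 243 and 250 reads, and scaled to each total it was 4.17-fold higher with FH-DHX36.

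In the remaining groups, SLC35A4 of the nucleotide sugar family was the only one of the 24 members drawn above with more FH-DHX36 reads (2255) than FH-DHX36-E335A reads (1655). Almost all lay in the 3′ UTR (2232 and 1493). Among vitamin, nucleoside and organic ion carriers, SLC22A23 was the most read with FH-DHX36-E335A (516 and 225 reads) and the nucleoside transporter SLC29A1 with FH-DHX36 (402 and 375 reads). The thiamine transporter SLC19A2 had 401 FH-DHX36-E335A reads and no FH-DHX36 cluster. The folate carrier SLC19A1 had 140 and 170 reads.

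The crosslinked reads of solute carriers lay mainly in 3′ UTRs. Of the 64922 FH-DHX36-E335A reads in exonic regions of members, 78.2% were in the 3′ UTR (95% Wilson interval 77.9 to 78.5%), and the CDS and 5′ UTR held 15.7% and 6.03%. For other bound genes the shares were 71.9%, 22.9% and 5.20%. With FH-DHX36, 63.6% of 19345 exonic reads of members were in the 3′ UTR (63.0 to 64.3%), 5488 reads (28.4%) were in the CDS and 1547 reads in the 5′ UTR. For other bound genes the FH-DHX36 shares were 51.2%, 38.1% and 10.7%. Counted in exonic clusters, the FH-DHX36 3′ UTR shares of members and other bound genes were near each other, at 51.0% and 51.5%. With FH-DHX36-E335A they were 64.5% and 59.2%. Intervals cover counting error only, and reads of a gene are not independent. Without SLC1A5, the share of FH-DHX36 reads in the 3′ UTR was 68.0%. Intronic reads made up 4.34% and 6.18% of all member reads with FH-DHX36-E335A and FH-DHX36. Another annotation took 12.2% and 13.2%.

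Transcript length was set beside these shares. The 3′ UTR took 59.1% of the summed transcript length of the 108 members with an exonic FH-DHX36-E335A cluster, so that its reads were 1.32 times those at equal density and the CDS reads 0.44 times. For other bound genes the 3′ UTR value was 1.37. With FH-DHX36 the values were 1.08 for members and 1.00 for other bound genes. Counted as genes, a 3′ UTR cluster was present on 91 of 118 members with FH-DHX36-E335A (background 78.4%) and 36 of 66 with FH-DHX36 (background 52.5%). CDS clusters were present on 67 of 118 (background 65.2%) and 31 of 66 (background 46.9%). For the 5′ UTR the numbers were 21 of 118 (background 20.4%) and 10 of 66 (background 18.6%), and for introns 24 of 118 (background 23.9%) and 23 of 66 (background 24.3%). No exonic cluster was listed for 10 of 118 (background 6.57%) and 14 of 66 (background 15.3%).

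By substrate group the shares ranged widely. With FH-DHX36-E335A the 3′ UTR held 93.2% of exonic reads of inorganic ion carriers and 88.5% of those of amino acid carriers, but 57.8% of those of mitochondrial carriers, where the CDS held 36.6%. The 5′ UTR held 18.5% in metal carriers, most of it from SLC39A8. With FH-DHX36 the 3′ UTR held 39.3% in inorganic ion carriers, 61.1% in amino acid carriers and 38.8% in mitochondrial carriers. The inorganic ion values rest on different genes. SLC4A2 held 250 of the 400 exonic FH-DHX36 reads, and SLC20A1 held 3875 of the 6688 exonic FH-DHX36-E335A reads. The share was lower with FH-DHX36 than with FH-DHX36-E335A in 5 of the 7 groups. It was higher in nucleotide sugar carriers (99.0% and 91.3%) and in vitamin, nucleoside, lipid and organic ion carriers (96.2% and 87.9%). The nucleotide sugar values are mainly those of SLC35A4. It held all 2255 exonic FH-DHX36 reads of the group and 1597 of its 1671 exonic FH-DHX36-E335A reads.

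**Figure D3:**
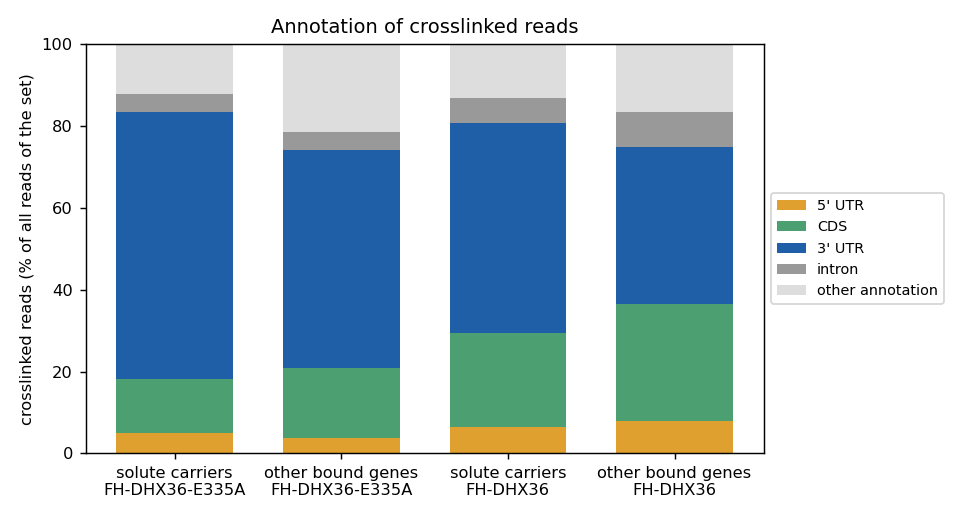
Share of all crosslinked reads (y axis, percent) by annotation for bound solute carriers and for other bound genes in each PAR-CLIP, as stacked bars. The 3′ UTR part of the bar is 65.3% (FH-DHX36-E335A) and 51.3% (FH-DHX36) for solute carriers, above the 53.2% and 38.3% of other bound genes.

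Gene by gene, 24 members had at least 100 exonic reads in both PAR-CLIPs. The region with the most reads was the same in 19 of them, the 3′ UTR in 14, and differed in 5, where the background is 23.3% of genes. In the 5, SLC1A5, SLC5A3, SLC4A2, SLC25A44 and SLC16A9, the 3′ UTR led with FH-DHX36-E335A and the CDS with FH-DHX36. In SLC16A9, a carnitine transporter, 467 of 550 FH-DHX36-E335A reads were in the 3′ UTR and all 106 FH-DHX36 reads in the CDS. The share of exonic reads in the 3′ UTR was higher with FH-DHX36-E335A in 18 of the 24 (background 58%) and higher with FH-DHX36 in 3 (background 28.6%), with medians of 85.6% and 57.7%. In 13 members no exonic cluster was found in either PAR-CLIP, and 7 of these had an intronic cluster. SLC35A3 and SLC39A9 had all their reads in another annotation in both PAR-CLIPs (254 and 119 reads, and 343 and 78 reads).

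Reads of the 59 carriers bound in both PAR-CLIPs were compared after scaling to the total of each table. Their median log2 ratio of FH-DHX36-E335A over FH-DHX36 was -0.46, while the median over all 5669 genes bound in both was 0.12. Relative to that shift the members' median was -0.58. The interval of the -0.46, from the ranks of genes, was -1.10 to 0.22 and includes 0.12. A larger scaled value was found with FH-DHX36-E335A in 25 members (background 53.4%) and with FH-DHX36 in 34. The ratio exceeded 2-fold toward FH-DHX36-E335A in 10 of 59 (16.9%, background 28.6%) and toward FH-DHX36 in 22 of 59 (37.3%, background 24.8%). Among the 36 members with at least 100 reads in both, 4 exceeded 2-fold toward FH-DHX36-E335A (background 17.4%), 12 toward FH-DHX36 (background 28.1%) and 20 lay within 2-fold. Unscaled reads were higher with FH-DHX36 in 10 of 59 members (background 10.7%). Across the 59, reads in the PAR-CLIPs had a rho of 0.70, and 0.63 across other genes bound in both. With 1 value per line, none of these differences could be set against replicate error.

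Substrate groups lay at different ratios. Mitochondrial carriers had a median log2 ratio of 0.31, with 13 of 18 genes higher with FH-DHX36-E335A, under both scalings. Amino acid carriers had a median of -1.10, with 10 of 13 higher with FH-DHX36 under both scalings. The 6 vitamin, nucleoside and organic ion carriers were all higher with FH-DHX36, with a median of -2.11. The lowest of the 6, at -4.02, rests on 29 FH-DHX36-E335A and 116 FH-DHX36 reads in 1 cluster each. Over all genes bound in both, 53.4% were higher with FH-DHX36-E335A. Single genes lay far from their group. SLC20A1 was 12.4-fold higher with FH-DHX36-E335A (log2 3.63) at 77 FH-DHX36 reads, and among carriers with at least 100 reads in both SLC25A36 (1.93), SLC39A10 (1.88) and SLC38A2 (1.70) were the highest. The lowest of these were SLC35A4 (-2.46), SLC19A1 (-2.30) and SLC4A2 (-2.06). SLC16A1 lay near an equal share at -0.25. The SLC7A family fell on the FH-DHX36 side in each of its 3 genes bound in both, with -0.55 for SLC7A2, -1.34 for SLC7A5 and -1.79 for SLC7A1.

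**Figure D4:**
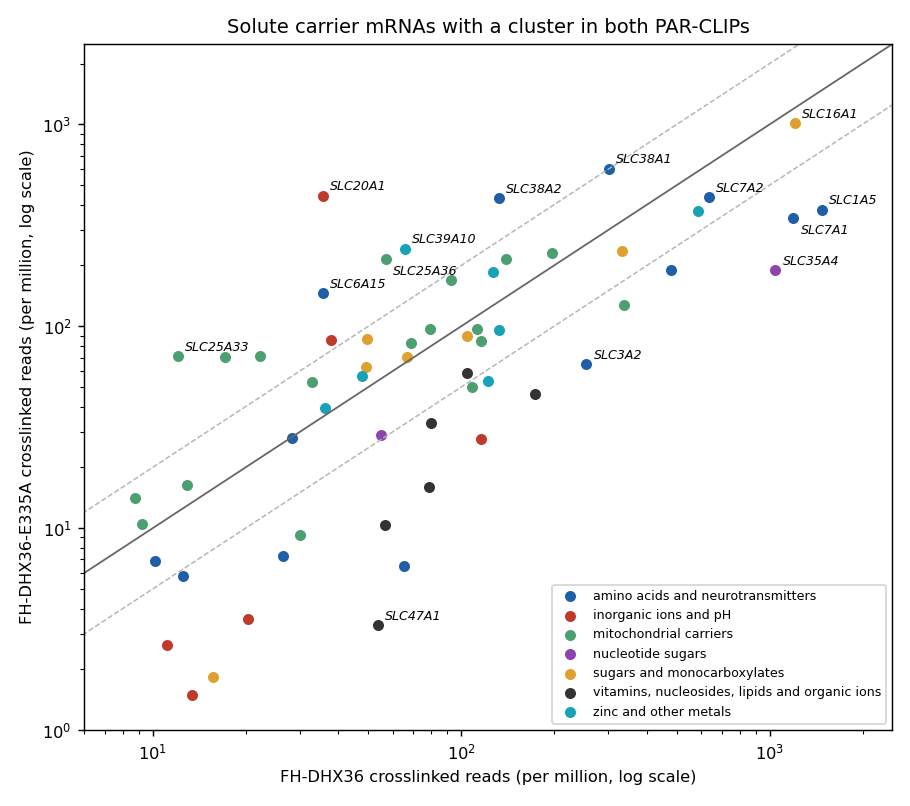
Crosslinked reads scaled to each table's total, FH-DHX36 on the x axis and FH-DHX36-E335A on the y axis (log scales), for the 59 solute carrier mRNAs with clusters in both PAR-CLIPs, coloured by substrate group. The solid line marks equal values and the dashed lines a 2-fold difference; 22 genes lie beyond the lower dashed line and 10 beyond the upper.

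For the 59 carriers with FH-DHX36-E335A clusters only, the median was 54 reads (10 to 1737), and 22 had at least 100 (background 52%). The carriers bound in both had a median of 616 FH-DHX36-E335A reads and 144 FH-DHX36 reads. Other genes showed a like order, with a median of 108 reads where FH-DHX36-E335A alone bound and 628.5 FH-DHX36-E335A reads where both did. Together the 59 held 11.3% of the members' FH-DHX36-E335A reads. At an equal share of the smaller FH-DHX36 total, SLC26A2 would have 429 reads, SLC11A2 145, SLC7A6 118, SLC4A7 118 and SLC19A2 99.0, where the table lists none. SLC7A6OS overlaps SLC7A6 on the opposite strand. The table lists reads in called clusters only, so a 0 there is not a count of unbound RNA. Of the 7 carriers bound by FH-DHX36 alone, the zinc carrier SLC39A11 had the most reads, 161 in 2 clusters, and SLC36A1, a proton-coupled amino acid carrier, had 75. The other 5 had 14 to 42 reads in 1 cluster each.

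NXPM set the reads against RNA abundance. The median NXPM of members was 4.32 with FH-DHX36-E335A, beside 5.69 for other bound genes. The interval of the members' median, from the ranks of genes, was 2.46 to 6.96 and includes 5.69. With FH-DHX36 the median NXPM of members was 13.4, above the 7.79 of other bound genes. An NXPM above 100 was found for 6 of 118 members with FH-DHX36-E335A (background 5.18%) and for 4 of 66 with FH-DHX36 (background 6.78%). The 4 with FH-DHX36 were SLC1A2 (300.3), SLC5A3 (290), SLC7A1 (253) and SLC7A2 (213). They had 27, 716, 2579 and 1373 FH-DHX36 reads, the 27 of SLC1A2 in 1 cluster. With FH-DHX36-E335A, SLC26A2 (215), SLC5A3 (205) and SLC7A2 (146) exceeded 100 with 1737, 2058 and 3803 reads. SLC16A7, SLC1A2 and SLC22A10 exceeded it with 20, 51 and 156 reads. SLC1A2 and SLC16A7 had recovered abundances of 0.041 and 0.012, and SLC22A10, whose reads were intronic, had an abundance of 0, so that its score of 17824 is reads over the added constant of 0.001. Recovered abundance had a median of 4.25 in members and 5.75 in all bound genes. Across members its rho with crosslinked reads was 0.39 for FH-DHX36-E335A (118 genes) and 0.31 for FH-DHX36 (66 genes). With NXPM, which is divided by it, the rho was -0.43 and -0.63.

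**Figure D5:**
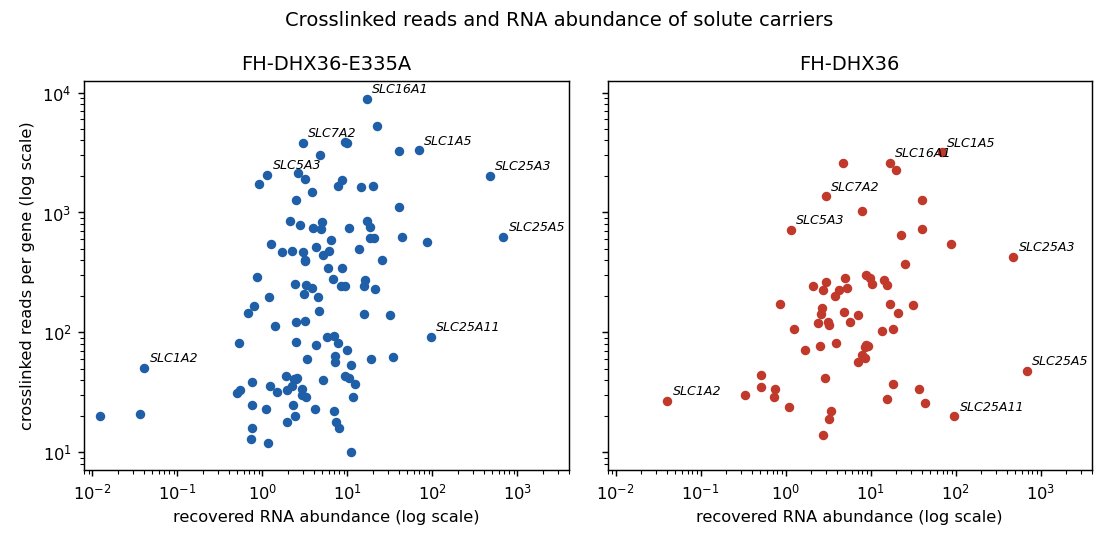
Crosslinked reads per gene (y axis, log scale) against recovered RNA abundance (x axis, log scale) for members bound by FH-DHX36-E335A (left) and FH-DHX36 (right), one point per gene, without SLC22A10, whose abundance is 0. SLC25A3 and SLC25A5 lie at the right edge with 2020 and 626 FH-DHX36-E335A reads, while SLC5A3 and SLC7A2 reach 2058 and 3803 reads at abundances of 1.14 and 2.98.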

How the data were processed

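PAR-CLIP libraries came from HEK293 lines with either transgene, with 2 replicates per line. Base calls were converted with bcl2fastq 2.17.1 per the submitters' processing notes. Reads were mapped to hg19, clusters were called with PARalyzer within PARpipe at default settings and placed in categories of GENCODE v19, and RNA abundance came from TopHat and Cufflinks, with parameters not stated. The authors deposited 1 table of 26490 lines with 30 columns of values, 1 value per gene and line. Counts of clusters and of crosslinked reads were deposited without normalization. NXPM is a score deposited by the authors, and it equals reads scaled to the table's total and divided by abundance plus 0.001, with regional scores scaled to the reads of the region. A category other than UTR, CDS or intron was taken as the total minus these 4.

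Abundance was recovered from reads and NXPM, and both PAR-CLIPs gave the same value within 0.1% for all 59 members bound in both. Lengths and G runs were taken from the Ensembl canonical transcript of each gene in GENCODE 44 lifted to GRCh37, which is the hg19 build with a later annotation, and 124 of 125 members were matched. Stop codons went with the CDS. No sequence of SLC7A2, on chromosome 8, is shown. Python 3.11.15, pandas 2.3.3, numpy 2.4.6, scipy 1.17.1 and matplotlib 3.10.9 were used, and the scripts were tested on simulated data. Replicates are not separated in the table, so no test was run. Shares have 95% Wilson intervals, which cover counting error only because PCR copies are not independent molecules. Intervals of medians come from the ranks of genes, which are not replicates. The members and the substrate groups were chosen with earlier results of these data known. Named genes were those with the most reads, highest NXPM, most reads per region, highest and lowest ratios, fewest reads, the most read of each group and of those bound in 1 PAR-CLIP, and those whose leading region differed. Other named genes (SLC1A2, SLC2A1, SLC3A2, SLC7A11, SLC12A2, SLC16A7, SLC22A10, SLC25A5, SLC25A6, SLC25A17, SLC25A28, SLC25A33, SLC25A46, SLC29A1, SLC30A1, SLC31A1, SLC35A3, SLC37A3, SLC39A9, SLC40A1 and SLC50A1) were chosen after their values were seen. Alternatives tried were other cluster and read minimums, other symbols, other denominators, another scaling, a pseudocount of 1 and a minimum abundance of 1.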

Additional observations from a re-analysis of the deposited data

How the results depend on the processing

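The number of bound carriers was 125, and 112, 85, 133 and 146 with an exonic cluster, with 2 clusters, with carriers under other symbols, and with any SLC letter and SLCO genes, the last chosen after seeing the data. It was 73 with at least 100 reads. The 3′ UTR share of exonic FH-DHX36-E335A reads was 78.2% and moved to 64.5% counted in clusters, 78.7% without SLC16A1, 82.9% as the median of members with at least 100 exonic reads and 65.3% of all reads. With FH-DHX36 the 63.6% moved to 51.0%, 68.0% without SLC1A5, 66.9% and 51.3%. The median log2 ratio of -0.46 was -0.58, -0.36 and -0.50 with the other scaling, with at least 20 reads in both and with exonic reads only. It turned to 1.87 with members bound in either and a pseudocount of 1, which by construction adds the 59 members without an FH-DHX36 cluster. The median FH-DHX36-E335A NXPM of 4.32 was 3.39 at an abundance of at least 1 and moved to 9.61 among members with at least 100 reads.

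No paired analysis was possible because the table merges the replicates of each line. For the same reason, leaving out each replicate in turn was not run, and no value has a replicate error. Isoform, helicase mutation and cell clone cannot be told apart. The FH-DHX36 table is the smaller by a ratio of 4.05, and the part of depth in the carriers without an FH-DHX36 cluster was not tested.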

Other observations

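In a list of 12 partners and regulators of solute carriers, compiled by hand from general knowledge with earlier results of these data known, 10 genes were bound, beside 35.5% of all lines. The kinase WNK1, which controls cation-chloride cotransporters, had 5554 FH-DHX36-E335A reads and an NXPM of 119, and its downstream kinase OXSR1 had 1213 reads. CAB39, which activates that kinase, had 1108 reads. BSG and EMB, which escort monocarboxylate transporters to the membrane, had 1083 and 1014 reads. WNK3 and WNK4 had no cluster.

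Genes of the SLC35B to SLC35G families, which fall outside the symbol rule, were bound in 17 of 26 cases, beside the same 35.5%. SLC35F1 led them with 3202 FH-DHX36-E335A reads and 638 FH-DHX36 reads (NXPM 277 and 224). Carriers under other symbols were bound in 8 of 24 cases, and the phosphate exporter XPR1 had the most FH-DHX36-E335A reads among them (770). Among other transport proteins, 15 of 46 ABC transporters, 19 of 95 potassium channels and 16 of 40 P-type ATPases had a cluster in either PAR-CLIP, beside 35.5% of all lines.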
